A study of Mus musculus with 115 samples.

Results

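Epithelial-mesenchymal transition (EMT) was followed through 9 genes, Cdh1, Cdh2, Vim, Zeb1, Zeb2, Snai1, Snai2, Twist1 and Fn1. The genes were taken by name from the 45699 genes of the expression table, and all 9 were found. No cut on an expression value chose them, but earlier results of these data were known when they were chosen. They were read over the RNA-seq libraries of the series and set against 3 reference genes. Chga encodes chromogranin A of neuroendocrine secretory granules, Mki67 encodes a nuclear protein of cycling cells, and Col1a1 encodes a chain of type I collagen.

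The libraries came from bulk frozen prostate tissue, labelled as prostate tumour, of F2 males of a (TRAMP x WSB/EiJ) cross. Every one was labelled transgene positive. Per the paper's methods, RNA of small prostates came from the ventral prostate. Organ weight there stood for tumour burden with no check of pathology, and whether each library held tumour was not tested here. In TRAMP mice the probasin promoter drives SV40 T antigens in the prostate epithelium, and WSB/EiJ mice are inbred descendants of wild mice. The F2 animals therefore shared the transgene but differed from one another in the strain origin of their other loci. The labels place all libraries in 1 group, no library without the transgene was analysed here, and the age and tumour burden of each mouse were not used. The paper's methods describe fewer RNA samples than there are labelled libraries, the sources used here do not say which, and all labelled libraries were used.

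In EMT, epithelial cells lose junctions and polarity and gain a fibre-rich cytoskeleton, matrix secretion and motility. The transition is driven by transcription factors of the ZEB, Snail and Twist families, of which ZEB and Snail proteins bind the E-box CACCTG and repress Cdh1. Fibroblasts, endothelial cells and leukocytes of the tumour stroma express several of the same genes without any transition. In bulk tissue, fewer cells of a type and less RNA per cell cannot be told apart.

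Values are in TPM, a measure of transcript abundance corrected for transcript length and library total, so different genes can be compared within a library. TPM keeps no sequencing depth, and the precision from counting is unknown. The libraries fell into sets of 79 and 36 on the first principal component (48.7% of the variance, Ashman D of 6.1, where a value over 2 marks separate components). The 2 sets are not groups of the study, and no level was compared between them. Correlations were computed within each set on log2(TPM + 1). Marker genes of the prostate were present, with Hoxb13 at 1 TPM or more in 110 libraries, and with a median of 2962.5 TPM for the secreted transglutaminase gene Tgm4. Over all libraries the summed TPM ranged from 26 to 5135 for 6 fibroblast markers, from 2.23 to 103.4 for 6 endothelial markers and from 10.4 to 501.5 for 6 leukocyte markers.

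Cdh1, the E-cadherin of epithelial adherens junctions, lies on chromosome 8 from 106603351 to 106670246 (plus strand, GRCm38, as are all positions here). Its level was listed at 0 in the lowest library, had a median of 39.1 TPM and reached 124.2 TPM. It was at 1 TPM or more in 93 libraries and under 1 TPM in 22. The levels separated into 91 and 24 libraries, with no value between 2.42 and 8.4 TPM, so the libraries fell into those with high and those with low Cdh1.

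Cdh2, the N-cadherin of neural and mesenchymal cells, lies on chromosome 18 from 16588877 to 16809246 (minus strand). Its level ranged from 0.02 to 26.1 TPM around a median of 0.38 TPM, and it reached 1 TPM in 42 libraries. It separated into 79 and 36 libraries, with no value between 1.6 and 3.6 TPM. These are not quite the sets of the principal component, since W4548 of the 79 held 3.87 TPM and W1790 of the 36 held 1.2 TPM.

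Vim and Fn1 encode the intermediate filament vimentin and the matrix glycoprotein fibronectin. Vim (chromosome 2, 13573927 to 13582826, plus strand) was between 5.68 and 294.1 TPM with a median of 40.2 TPM. Fn1 (chromosome 1, 71585520 to 71653200, minus strand) was between 3.51 and 464.2 TPM with a median of 28.3 TPM. Both were above 1 TPM in every library and neither separated. Both were highest in library W4548, which also held the highest Col1a1 (645.3 TPM) and a Cdh1 level of 58.4 TPM.

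The zinc-finger homeobox repressors differed in spread. Zeb1 (chromosome 18, 5591860 to 5775467, plus strand) ranged from 0.81 to 31.2 TPM with a median of 6.38 TPM. Zeb2 (chromosome 2, 44983632 to 45117395, minus strand) ranged from 1.41 to 119.2 TPM with a median of 7.82 TPM. Zeb2 separated into 76 and 39 libraries across a narrow gap from 14.2 to 14.8 TPM, and Zeb1 did not separate. Exons of Zeb1 shared 198 bases with Gm10125 (median 2.6 TPM) and exons of Zeb2 shared 653 bases with Zeb2os (median 0.68 TPM), and exons of Fn1 shared 292 bases with Apol7d (median 0.04 TPM), all on the opposite strand. The library kit does not mark strand, so reads from those bases cannot be assigned to either gene.

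The Snail family and Twist1 were low. Snai1 (chromosome 2, 167538195 to 167542814, plus strand) encodes the zinc-finger protein Snail, was listed at 0 in 1 library, had a median of 0.12 TPM and reached 1.72 TPM. Snai2 (chromosome 16, 14705852 to 14709385, plus strand) encodes Slug and ranged from 0.02 to 1.57 TPM with a median of 0.43 TPM. Twist1 (chromosome 12, 33957671 to 33959829, plus strand), a basic helix-loop-helix factor, ranged from 0.02 to 20.9 TPM with a median of 0.58 TPM. At least 1 TPM was reached by Snai1 in 5 libraries, by Snai2 in 8 and by Twist1 in 34.

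**Figure D1:**
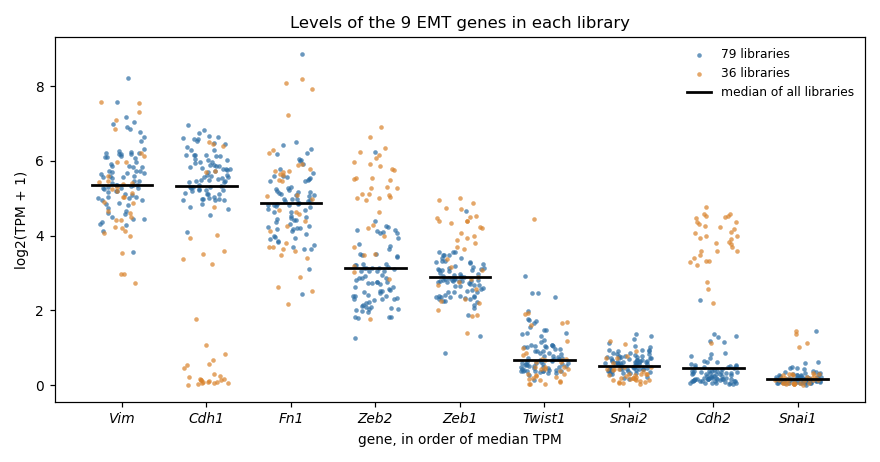
Levels of the 9 genes in each library as log2(TPM + 1), ordered by median TPM (black lines), with colours for the sets of 79 and 36 libraries. Cdh1 and Cdh2 fall into high and low libraries, whereas Snai1 lies near 0 with 5 libraries at 1 TPM or more.

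The promoters of Snai1 and Twist1 are shown because Snai1 was called higher with Twist1 (r = 0.47 within the 62 libraries described further on). There 48.2% of all genes were called higher with Twist1 too, and within the other 17 libraries Snai1 was not called (limma adjusted p = 0.144). The other reason is that CACCTG is the E-box that Snail proteins bind. The sequences are the 250 bases upstream of the RefSeq start on GRCm38.p6, in lower case, with any CACCTG in capitals. Snai1 spans chr2:167537945-167538194 and Twist1 spans chr12:33957421-33957670, both on the plus strand.
Snai1: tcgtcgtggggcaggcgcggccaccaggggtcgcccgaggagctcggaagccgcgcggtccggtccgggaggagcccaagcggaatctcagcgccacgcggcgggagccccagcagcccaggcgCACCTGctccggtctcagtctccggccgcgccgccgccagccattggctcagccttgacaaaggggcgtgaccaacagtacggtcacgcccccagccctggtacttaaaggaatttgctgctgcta
Twist1: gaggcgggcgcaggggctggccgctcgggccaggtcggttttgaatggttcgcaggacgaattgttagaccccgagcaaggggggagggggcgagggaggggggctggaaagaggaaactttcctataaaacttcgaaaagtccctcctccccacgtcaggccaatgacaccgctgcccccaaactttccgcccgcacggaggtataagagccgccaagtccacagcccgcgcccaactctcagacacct
Snai1 held 1 CACCTG, which begins 126 bases before the start, and the Twist1 window held none. Windows of 300 bases around the RefSeq starts of Vim and Zeb2 also held none on either strand (CACCTG or CAGGTG). For Vim the window, 13574061 to 13574360, lies downstream of the gene start given above and does not cover it. Of 32851 such windows of the genome, 20.2% held the motif, and 1 match here is a description of these letters only.

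Within libraries the genes can be ordered without any scaling between libraries. By median TPM the order was Vim, Cdh1, Fn1, Zeb2, Zeb1, Twist1, Snai2, Cdh2 and Snai1. With both sets pooled, all 8 neighbouring pairs differed on average (two-sided sign-flip permutation test, adjusted p of 0.0244 or less). The order itself came from the same values, and for 2 of the pairs the mean difference ran against the medians. Cdh1 was above Fn1 in 68 libraries, yet the mean log2 difference was -0.45 (SD 2.13). Snai2 was above Cdh2 in 65 libraries with a mean log2 difference of -0.91 (SD 1.79). These 2 pairs ran in opposite directions within the sets, so their pooled means depend on the set sizes. The mean log2 difference of Cdh1 to Fn1 was 0.77 in the 79 libraries and -3.14 in the 36. That of Snai2 to Cdh2 was 0.24 and -3.42 (same test within each set, adjusted p = 1.33e-05 each). In the 79 libraries alone, Vim and Cdh1 did not pass the test (mean log2 difference -0.09, adjusted p = 0.325), nor did Zeb2 and Zeb1 (0.10, adjusted p = 0.1). In the 36 libraries alone, Fn1 and Zeb2 did not (-0.04, adjusted p = 0.923). Neither result shows that those levels were equal.

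Pooled over both sets, the cadherins were close to alternative states, but not strictly so. Cdh1 alone reached 1 TPM in 73 libraries, Cdh2 alone in 22, both in 20 and neither in 0. All of the 79 libraries held Cdh1 at 1 TPM or more, and all of the 36 held Cdh2 at that level. The 73 therefore lie in the 79 and the 22 in the 36. These counts thus follow the sets and do not show a relation within either. Cdh1 exceeded Cdh2 within the library in 79 of the 79 libraries and in 9 of the 36. Every library with Cdh1 under 1 TPM thus held Cdh2 at 1 TPM or more, while 20 libraries held both at that level.

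Over the 2 sets pooled, Cdh2 was detected where Chga was, with few exceptions. Both reached 1 TPM in 39 libraries, neither did in 70, Cdh2 alone did in 3 and Chga alone in 3. All of the 36 libraries held Cdh2 at 1 TPM or more, and all of them but W1118 held Chga at that level. Most of the 39 thus lie in the 36, and the 70 all lie in the 79, so the agreement largely restates the sets. The exceptions of both kinds were named after their values were seen. Of those with Cdh2 alone, W1118 held 5.72 TPM of Cdh2 and 0.15 TPM of Chga. W4078 held 1.6 and 0.07 TPM, and W4548 held 3.87 and 0.67 TPM. All 3 held high Cdh1 (52.1 TPM or more) beside high Vim (158.1 to 294.1 TPM). High Cdh1 was not particular to them, since every library of the 79 held 16.1 TPM or more. With Chga alone, W4292, W4443 and W5003 held Cdh1 at 88.7, 94.5 and 30.1 TPM and Vim at 70.9, 59.3 and 48.9 TPM.

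**Figure D2:**
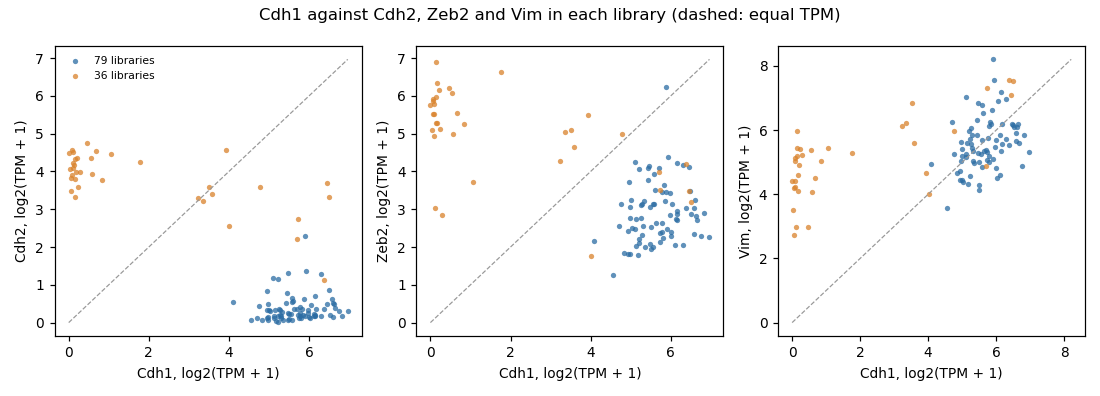
Cdh1 (horizontal) against Cdh2, Zeb2 and Vim (vertical) in each library, all as log2(TPM + 1), with colours for the sets of 79 and 36 libraries and a dashed line at equal TPM. Cdh1 lies above Cdh2 in 88 libraries, and 20 libraries hold both cadherins at 1 TPM or more.

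A group of 4 libraries shaped many relations in the set of 36 and are given first. W1118, W1050, W1915 and W1790 held Chga at 0.15, 1.15, 1.23 and 2.55 TPM, whereas the other 32 held at least 21.1 TPM. Their Vim levels were 158.1, 184.8, 135.0 and 189.0 TPM. Their Fn1 levels were 242.3, 271.9, 148.2 and 288.8 TPM. The same 4 held Cdh1 at 52.1, 89.6, 86.2 and 82.5 TPM, and Snai1 at 1.18, 1.03, 1.56 and 1.72 TPM. These were the 4 highest levels of Cdh1, Vim, Fn1 and Snai1 in the set of 36. Zeb1 was at 3.6, 3.04, 2.6 and 4.99 TPM, and was lower in another library of the set (1.65 TPM). Col1a1 was also highest in these 4, up to 308.3 TPM, and the part of stromal cells in these levels was not tested. Many results in the set of 36, but not all, are given with and without them, an alternative chosen after the values were seen.

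Against Chga, the question was whether the EMT genes tracked neuroendocrine transcript levels. In the 79 libraries the slope on Chga was called for 5 of the 9 genes, all higher (limma, adjusted p under 0.05), beside 19% of all genes tested called higher and 0.121% called lower. Under median-of-ratios scaling 2 of the 9 were called higher, Cdh2 (r = 0.55) and Zeb2 (0.37), and Cdh1 was called lower (-0.29, limma adjusted p = 0.0479), beside 11.9% of all genes higher and 7.18% lower. Markers of other cells moved with Chga as well, with 5 of 6 endothelial, 6 of 6 fibroblast and 3 of 4 basal markers called higher as deposited, and 4, 2 and 3 under that scaling. Their part in these relations was not tested. Chga itself separated within the 79 into 72 libraries at 0.81 TPM or less and 7 at 1.19 TPM or more. Within the 72 libraries 0 of 9 genes passed limma, with 1 at an unadjusted p under 0.05, beside 1.16% of all genes called higher. Cdh2 had the largest r within the 72 (r = 0.25, permutation p = 0.0258, rho = 0.29, permutation p = 0.0125, limma adjusted p = 0.356). Within the 7 libraries Cdh2 had r = 0.82 (two-sided permutation p = 0.0277, rho = 0.82 with permutation p = 0.0348, limma adjusted p = 1). No gene of the whole table was called within the 7, so the limma count there says nothing about the 9 genes.

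In the 36 libraries the slope on Chga was called for 6 of the 9 genes, beside 8.69% of all genes called higher and 19.2% called lower. Cdh2 was higher with Chga (r = 0.42, permutation p = 0.0133, limma adjusted p = 0.0342). Snai1 was lower (r = -0.79, permutation p = 1e-05, the smallest that the resamples can give, limma adjusted p = 4.73e-07). Cdh1, Vim, Twist1 and Fn1 were also called lower. Cdh1 separated further within the 36, and its r with Chga was -0.04 within 21 libraries (permutation p = 0.875) and -0.72 within the 15 that include the 4 (permutation p = 0.00293, rho = -0.66, limma adjusted p = 0.01). On ranks 0 of the 9 passed limma, with 0 at an unadjusted p under 0.05, beside 1.03% of all genes called, and Spearman's rho of Snai1 was -0.29 (permutation p = 0.0902). Without the 4 libraries low in Chga, r was 0.07 for Snai1, 0.12 for Vim, -0.01 for Twist1, 0.24 for Fn1 and 0.04 for Cdh2, with none of these called, and 4.95% of all genes were called. Zeb2 alone then passed, at r = -0.59 (limma adjusted p = 0.0161), although its r over the 36 was 0.10. The 6 calls over the 36 libraries were thus not made without those 4 libraries.

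**Figure D3:**
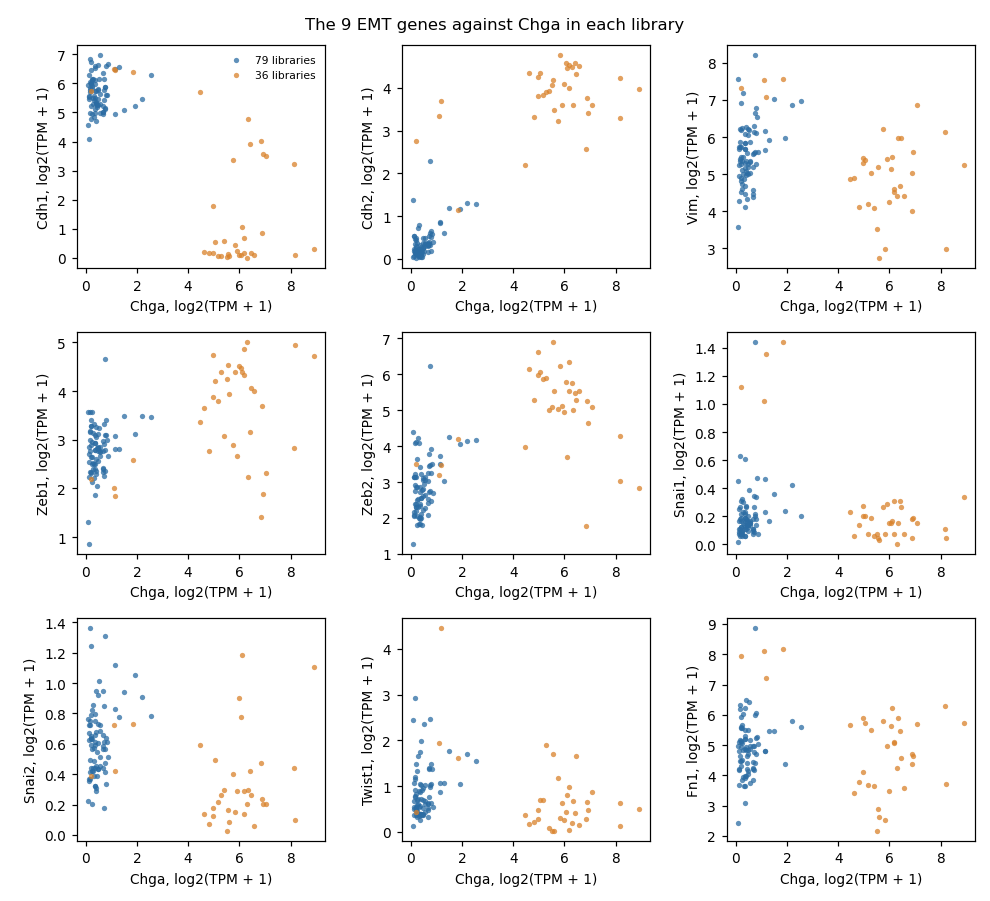
Each of the 9 genes (vertical) against Chga (horizontal) in every library, as log2(TPM + 1), with colours for the sets of 79 and 36 libraries. The 4 libraries of the set of 36 with Chga at or under 2.55 TPM hold the 4 highest levels of Cdh1, Vim, Fn1 and Snai1 in that set.

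Against Mki67, Cdh1 had the closest relation in the 79 libraries. Cdh1 rose with Mki67 at r = 0.78 (permutation p = 1e-05, rho = 0.81, limma adjusted p = 8.04e-16), and r was 0.76 once the 2 libraries with the most extreme Mki67 were left out. The slope was called for 4 of the 9 genes, all higher, beside 56.1% of all genes called higher and 2.71% called lower. The count is thus no higher a share than that of all genes. Under median-of-ratios scaling 2 of the 9 were called higher and 3 lower, beside 16.6% of all genes called higher and 21% lower. The 3 called lower were Zeb1 (-0.28), Zeb2 (-0.33) and Snai1 (-0.27). Cdh1 kept r = 0.61 under that scaling (limma adjusted p = 4.43e-08) and Fn1 went from r = 0.53 (permutation p = 1e-05, rho = 0.60) to 0.32 (limma adjusted p = 0.0136). Vim and Zeb1 were called higher with Mki67 as deposited (r = 0.36 and 0.27), but under median-of-ratios scaling Vim was at -0.01 and Zeb1 had the opposite sign.

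Epithelial genes were counted beside Cdh1 in the 79 libraries. Of 19 epithelial junction and keratin genes 18 were called higher with Mki67 (median r 0.64, against 0.30 over all genes), and 10 were under median-of-ratios scaling with none called lower. Krt8, a keratin of simple epithelia, had r = 0.78 (limma adjusted p = 3.61e-16). Of 12 epithelial regulators 10 were called higher and 1 lower, led by the ETS factor gene Elf3 (r = 0.86, limma adjusted p = 2.07e-22), but under median-of-ratios scaling 4 were higher and 2 lower (median r 0.00). Of 4 basal markers 1 was called higher, and under that scaling 0 were higher and 3 lower in the same limma fit. All 6 leukocyte markers were called higher too (median r 0.61), and 6 were also called under that scaling, and their part in the relation was not tested.

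In the 36 libraries, Mki67 ran with the neural cadherin and both ZEB genes. Cdh2 rose with Mki67 at r = 0.66 (permutation p = 6e-05, rho = 0.71, limma adjusted p = 0.000113). Zeb1 rose at r = 0.75 (permutation p = 1e-05, rho = 0.74, limma adjusted p = 2.74e-06). Zeb2 rose at r = 0.70 (permutation p = 2e-05, rho = 0.71, limma adjusted p = 1.84e-05). With the 2 most extreme libraries for Mki67 left out these r were 0.55, 0.76 and 0.60. They were 0.81, 0.78 and 0.71 without the 4 libraries low in Chga, so the 3 relations were at least as large without those. In all, 5 of the 9 genes were called, 3 higher and 2 lower, beside 24.5% of all genes called higher and 18.4% lower. Markers of other cells were lower with Mki67 in this set. Without the 4 libraries, 16 of 19 epithelial junction genes (median r -0.69), 5 of 6 smooth muscle, 5 of 6 leukocyte and 3 of 6 endothelial markers were called lower. Under median-of-ratios scaling of the 36, all 6 markers of each of these 3 cell types were. Their part in the relations of Cdh2, Zeb1 and Zeb2 was not tested.

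The 2 called lower with Mki67 in the 36 libraries were Cdh1 and Fn1. Fn1 had r = -0.39 (permutation p = 0.0208, rho = -0.47, limma adjusted p = 0.0376). Without the 4 libraries low in Chga it had the same r and did not pass (limma adjusted p = 0.0509). Cdh1 separated within the 36 into 21 libraries at 0.59 TPM or less and 15 at 0.79 TPM or more, so no r over all 36 is given. They are called low and high below, but this is not the split over all libraries. The 15 include W4199 (0.79 TPM), W1512 (1.09 TPM) and W4356 (2.42 TPM), which were low in that split. Its r with Mki67 was 0.06 within the 21 (permutation p = 0.794, rho = -0.11, permutation p = 0.644) and -0.17 within the 15 (permutation p = 0.547, rho = 0.00, permutation p = 0.995).

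Against Col1a1, 8 of the 9 genes were called higher in the 79 libraries, beside 52.3% of all genes called higher and 2.62% called lower, and the count was 8 under median-of-ratios scaling, where 20% of all genes were called higher. Cdh1 was the exception (r = 0.14, permutation p = 0.225, rho = 0.19, limma adjusted p = 0.285), and under that scaling it reversed to r = -0.32 (limma adjusted p = 0.0152). Fn1 followed Col1a1 at r = 0.81 (permutation p = 1e-05, rho = 0.76, limma adjusted p = 1.46e-17), and 0.73 without the 2 farthest libraries. Snai1 followed at r = 0.78 (permutation p = 1e-05, rho = 0.62, limma adjusted p = 5.63e-15), and 0.57 without the 2 farthest. Vim followed at r = 0.70 (permutation p = 1e-05, rho = 0.74, limma adjusted p = 2.86e-11), and 0.66 without the 2 farthest. Without library W4548, r with Col1a1 was 0.74 for Fn1, 0.64 for Snai1, 0.64 for Vim and 0.39 for Cdh2 (0.59 with it), all still called. Twist1 separated within the 79 libraries, and its r with Col1a1 was 0.50 within 62 (permutation p = 4e-05, rho = 0.51, limma adjusted p = 0.000262) and 0.76 within 17 (permutation p = 0.00095, rho = 0.77, limma adjusted p = 0.0124).

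In the 36 libraries all 9 genes were called with Col1a1, 6 higher and 3 lower, beside 33.5% of all genes called higher and 17.2% lower. Fn1 had r = 0.95 (permutation p = 1e-05, rho = 0.96, limma adjusted p = 1.58e-16) and Vim had r = 0.87 (permutation p = 1e-05, rho = 0.86, limma adjusted p = 2.09e-10). Without the 4 libraries low in Chga, these were 0.93 and 0.79, both still called. Cdh2, Zeb1 and Zeb2 were lower with Col1a1 (r = -0.48, -0.51 and -0.43), but without those 4 libraries they were at -0.25, -0.34 and -0.26 and did not pass. The count then was 5 of 9, beside 18.2% of all genes. Cdh1 had r = 0.20 with Col1a1 within its 21 low libraries (permutation p = 0.375, rho = 0.34) and 0.51 within its 15 high libraries (permutation p = 0.0554, rho = 0.45).

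Stromal genes moved with Col1a1 along with the EMT genes. Of 24 other mesenchymal genes 23 were called higher in the 79 libraries (median r 0.75), as were 6 of 6 fibroblast markers (0.81), 5 of 6 endothelial markers (0.58) and 5 of 6 leukocyte markers (0.62). Under median-of-ratios scaling these counts were 21, 6, 5 and 5. Among 13 other EMT factors, of which 12 could be tested, 10 were called higher (6 under that scaling), and Prrx1 led them (r = 0.78 and 0.89 in the 79 and the 36 libraries). Its r in the 36 includes the 4 libraries low in Chga. In the 79 libraries 9 of 14 genes of the TGF-beta pathway, a known inducer of EMT, were called higher, near the 52.3% of all genes, led by Inhba (r = 0.70), whereas under median-of-ratios scaling 6 were higher and 2 lower. The part of stromal cell content in the relations of Vim, Fn1, Snai1 and Twist1 was not tested.

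**Figure D4:**
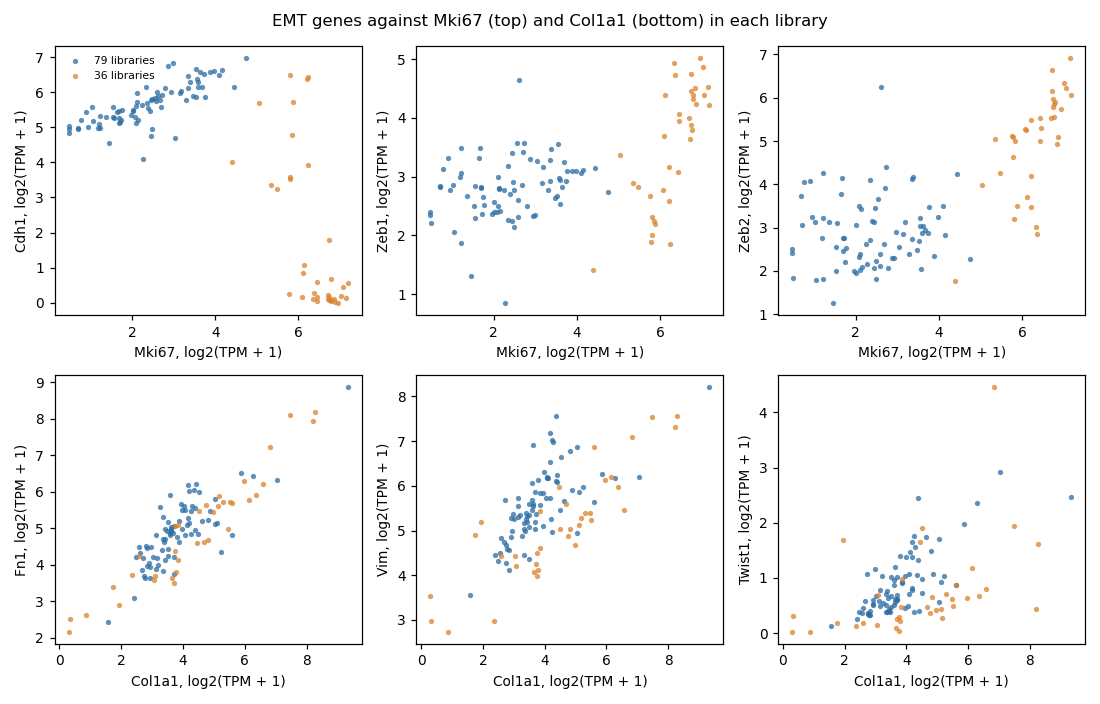
Cdh1, Zeb1 and Zeb2 against Mki67 (top) and Fn1, Vim and Twist1 against Col1a1 (bottom) in each library, all as log2(TPM + 1), with colours for the sets of 79 and 36 libraries. Cdh1 climbs with Mki67 within the 79 libraries (r = 0.78, and 0.61 under median-of-ratios scaling), and Fn1 climbs with Col1a1 within both sets (r = 0.81 and 0.95).

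Among themselves, 31 of the 36 pairs of the 9 genes were called in the 79 libraries, including pairs of Twist1 fitted across its 62 and 17 libraries. The share of all genes called in either direction was 69.4% with Cdh1, 62.5% with Cdh2, 77.9% with Vim, 78.8% with Zeb1 and 70% with Zeb2. It was 50.2% with Snai1, 58.9% with Snai2, 62.3% with Twist1 and 68.6% with Fn1, so the count alone is not a result about EMT genes. Cdh2 and Zeb2 were the closest pair (r = 0.85, permutation p = 1e-05, rho = 0.84, limma adjusted p = 4.03e-21), and they kept r = 0.83 under median-of-ratios scaling. Most Cdh2 levels in this set were under 1 TPM, and Cdh2 came close to separating into 68 and 11 libraries (Ashman D of 1.98). Vim and Zeb2 had r = 0.83, and 0.72 under that scaling. Zeb1 and Zeb2 had r = 0.79, and 0.62 under that scaling. Without library W4548 these 3 pairs were at 0.81, 0.80 and 0.74, while Cdh2 with Fn1 went from 0.48 to 0.27 (limma adjusted p = 0.0272).

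Endothelial and fibroblast markers moved with the same genes. All 6 endothelial markers were called higher with Zeb2 in the 79 libraries (median r 0.90), led by Pecam1 (r = 0.92). With Vim all 6 were called as well (median r 0.84), as were all 6 fibroblast markers (0.82). With Cdh2 5 of 6 endothelial markers (0.81) and 6 of 6 fibroblast markers (0.66) were called. Under median-of-ratios scaling the endothelial counts were 5 for each of the 3 genes, and the fibroblast counts were 6. In the 36 libraries without the 4 low in Chga, 0 of 6 endothelial and 0 of 6 fibroblast markers and 3 of 6 proliferation markers were called with Zeb2 by limma, beside 6.78% of all genes called higher and 6.98% lower, against 69% higher in the 79 libraries. The difference between the sets was not tested. The part of vascular and stromal cells was not tested.

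The sign of the relations of Cdh1 in the 79 libraries depended on the scaling. As deposited, Cdh1 was called higher with Vim (r = 0.34), Zeb1 (0.37) and Fn1 (0.38), and under median-of-ratios scaling the same 3 were at -0.48, -0.52 and -0.14. Under that scaling 15.4% of all genes were called higher and 16.8% lower with Cdh1. Cdh2 (-0.43) and Zeb2 (-0.54) were then called lower with Cdh1, against 0.10 and 0.19 as deposited. With the 20 genes of largest share removed, Cdh1 had r = -0.10 with Vim and 0.04 with Zeb1. The direction between Cdh1 and the mesenchymal genes thus changed with the scaling, whereas its relation to other junction genes had the same sign under both scalings (18 of 19 called higher as deposited, 16 of 19 with 1 lower under median-of-ratios scaling).

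In the 36 libraries, Cdh1 was compared within its low and high libraries. Within the 21 low libraries 0 of 8 genes passed limma, with 0 at an unadjusted p under 0.05, beside 0.0477% of all genes called, so hardly any gene could be called there. Within the 15 high libraries 3 of 8 passed, beside 14.5% of all genes called higher and 5.08% lower. Zeb1 was lower with Cdh1 (r = -0.66, permutation p = 0.00752, rho = -0.66, limma adjusted p = 0.027). Snai1 (r = 0.75, permutation p = 0.00132, rho = 0.70, limma adjusted p = 0.00809) and Fn1 (r = 0.63, permutation p = 0.0119, rho = 0.47, limma adjusted p = 0.0329) were higher. The 15 include all 4 libraries low in Chga, which hold the highest Snai1 and Fn1 of the set, and no value without them is given for this cluster.

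The other genes formed opposed blocks in the set of 36, which weakened without the same 4 libraries. Cdh2 and Zeb1 rose together (r = 0.63, permutation p = 2e-05, rho = 0.70, limma adjusted p = 0.000312), as did Vim and Fn1 (r = 0.85, permutation p = 1e-05, rho = 0.80, limma adjusted p = 2.78e-09). Vim and Zeb1 were opposed (r = -0.53, permutation p = 0.00106, rho = -0.44, limma adjusted p = 0.00233). In all, 25 of 36 pairs were called, including pairs of Cdh1 fitted across its 21 and 15 libraries. The share of all genes called in either direction was 56.2% with Cdh1, 42.7% with Cdh2, 49.9% with Vim, 50.7% with Zeb1 and 33.8% with Zeb2. It was 46.3% with Snai1, 2.15% with Snai2, 16.5% with Twist1 and 48.5% with Fn1. Without the 4 libraries the count was 7, and the shares of all genes were lower too. They were then 8.76% higher and 2.43% lower with Vim, 2.47% and 0.0259% with Snai1, 11.5% and 0.371% with Fn1, and 23.9% and 11.7% with Zeb1. Cdh2 and Zeb1 (0.66) and Vim and Fn1 (0.73) were among the 7, and Vim and Zeb1 (-0.32) were not.

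**Figure D5:**
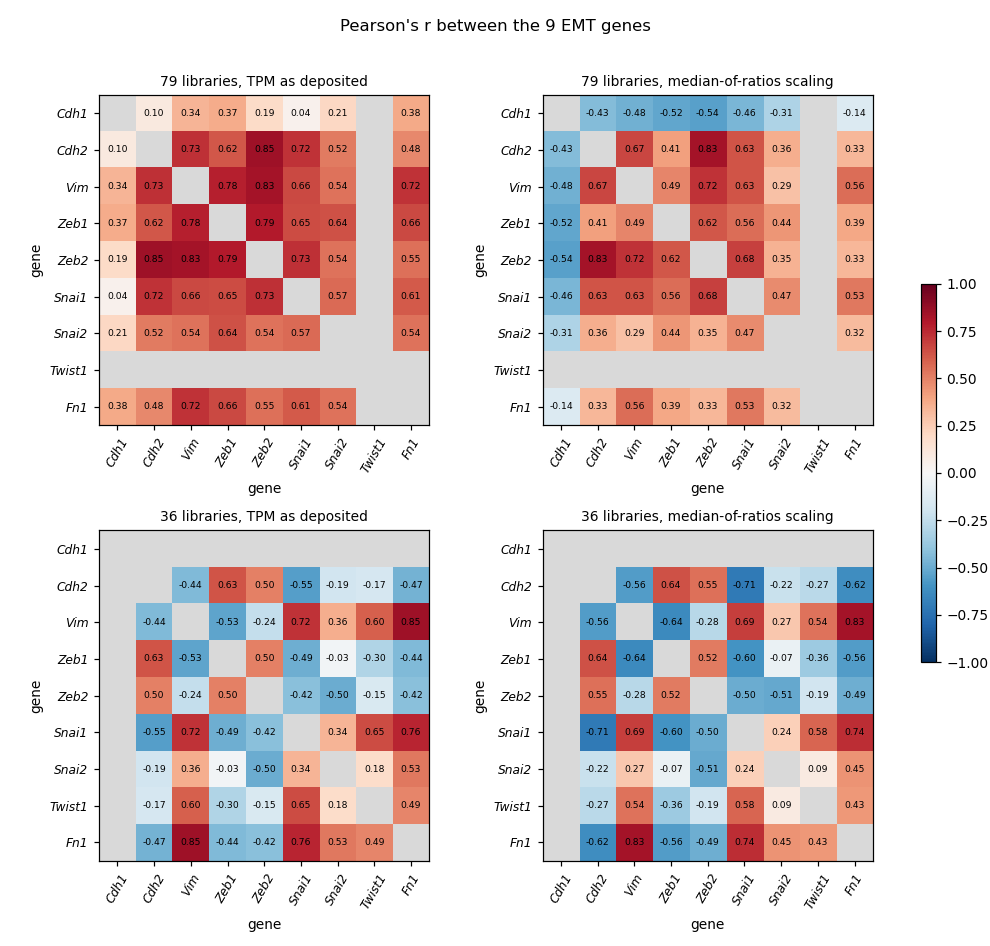
Pearson's r between pairs of the 9 genes in the 79 libraries (top) and the 36 libraries (bottom), from TPM as deposited (left) and after median-of-ratios scaling (right). Grey marks a gene whose values separate further within the set, for which no r is shown. The row of Cdh1 in the 79 libraries is positive as deposited (0.04 to 0.38) and negative after scaling (-0.54 to -0.14).

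Twist1 was examined within its 62 low and 17 high libraries of the 79. Within the 62 libraries, 6 of the 8 other genes were called higher with Twist1, beside 48.2% of all genes. Zeb2 had r = 0.79 (permutation p = 1e-05, rho = 0.79, limma adjusted p = 7.19e-12) and Vim had r = 0.73 (permutation p = 1e-05, rho = 0.75, limma adjusted p = 1.02e-09). Within the 17 libraries 1 of the 8 was called, beside 1.46% of all genes called higher and 3.03% lower, and 4 were at an unadjusted p under 0.05. The gene called was Snai2 (r = 0.79, permutation p = 0.00036, rho = 0.67, limma adjusted p = 0.0209). Snai1 (r = 0.57), Fn1 (0.60) and Zeb1 (0.51) were the others.

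The genes most like each member were ranked by the lower of their r in the 2 sets, among 12505 autosomal protein-coding genes whose mean reached 1 TPM, as a description with no test. Libraries share scaling and cell composition, which such r include. The r in the 36 include the 4 libraries low in Chga, and no neighbour r without them is given. The genes most like Cdh1 were Fam83h, Lsr and Marveld2, of which Lsr and Marveld2 encode proteins of tricellular tight junctions (r = 0.93 and 0.91 in the 79 libraries). Those most like Vim were Igfbp7 (0.92 and 0.91 in the 79 and the 36), Oaf (0.91 and 0.89) and Serpinh1 (0.88 and 0.88), a collagen chaperone. Those most like Fn1 were Postn, a matrix protein of activated fibroblasts (0.86 and 0.95), Colec12 (0.86 and 0.90) and Sulf1 (0.85 and 0.89).

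The transcription factors and Cdh2 had other neighbours. Cdh2 was nearest to Med12l (0.83 and 0.77), Sgcb (0.75 and 0.78) and Mtss1 (0.85 and 0.75). Zeb1 was nearest to Cdc42bpa (0.84 and 0.85), Cep170 (0.84 and 0.84) and Erc1 (0.83 and 0.87), and Zeb2 to Soga1 (0.80 and 0.81), Tsga10 (0.84 and 0.79) and Pcbp4 (0.79 and 0.77). Snai1 was nearest to the basement membrane gene Nid2 (0.80 and 0.81), the procollagen protease gene Bmp1 (0.81 and 0.78) and Olfml2b (0.80 and 0.78). Without the 4 libraries low in Chga, the share of all genes called higher with Snai1 in the 36 went from 33.9% to 2.47%. Snai2 was nearest to Gpc6 (0.71 and 0.72), Lrrk2 (0.67 and 0.67) and Adamts2 (0.64 and 0.69). Twist1, which separates in the 79, was nearest to Calhm2, Msx1 and Nfatc4 (0.74, 0.78 and 0.70 in the 36). In the 36, W1915 held 20.93 TPM of Twist1 and no other library more than 2.82 TPM. Without the 4 libraries low in Chga, which include W1915, the share of all genes called higher with Twist1 went from 15.2% to 0.00864%. No gene of the 9 appeared among the 3 neighbours of another.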

How the data were processed

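Total RNA was extracted from frozen prostate tissue, depleted of ribosomal RNA and sequenced. Per the submitters' processing notes, CASAVA 1.8.2, Bowtie2 2.2.5 and RSEM 1.2.20 were used with GRCm38, and the paper's methods describe alignment to transcriptomes carrying both parental alleles. The authors deposited TPM for each gene and library. Depth cannot be recovered from TPM, so no interval or floor for counting error is given. Nothing in the labels links libraries to litters, and p-values measure the spread between these libraries.

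Positions and exons came from GENCODE M21, which held 98.8% of the genes. A gene or component was said to separate where fitting 2 normal components in place of 1 reduced the BIC by more than 10, with Ashman D above 2 and no fewer than 6 libraries a side. The 23251 genes whose mean reached 0.1 TPM, which included all 9, entered a limma 3.58.1 fit (R 4.3.3, trend) within each set, Benjamini-Hochberg adjusted over all genes tested. Two-sided permutation tests of both correlations used 100000 resamples, and 1e-05 is the smallest p they give. There were 27 relations with references and 36 pairs in each set. Counts of genes or pairs called in a set come from fits across the whole set, also for genes that separate within it. The genes named were the 9, the 3 references, the 3 genes most alike to each (X-linked genes, listed at low values in this table, were not ranked), overlapping genes, and the list genes with the largest r. The 9 genes and the 13 wider lists were chosen with earlier results of these data known. Near-identical copies (95% identity over 80% of a transcript) were sought with BLAST+ 2.17.0, and 0 were found. Alternatives were a pseudocount of 0.1 TPM, median-of-ratios scaling, TPM without the 20 largest genes, ranks, other filters, other sets of libraries, a model with 3 references, and libraries left out. The fit was tested on simulated data. Some marker results are not reported here. Versions were matplotlib 3.10.9 for plots, scikit-learn 1.9.0 for mixtures, and scipy 1.17.1, pandas 2.3.3 and numpy 2.4.6 under Python 3.11.15.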

Additional observations from a re-analysis of the deposited data

How the results depend on the processing

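Of 126 relations, 63 in each set, direction and call were the same in 126 without library W78022, whose label is close to that of another, and in 126 with the component computed without the listed genes. With a pseudocount of 0.1 TPM 121 were the same, and with no filter 122. Under median-of-ratios scaling 4 gained the call and 6 lost it with the same sign, and 13 changed sign, the last all in the 79 libraries. These were Chga with Cdh1 (-0.29), Mki67 with Vim (-0.01), Zeb1 (-0.28) and Zeb2 (-0.33), Col1a1 with Cdh1 (-0.32), and Cdh1 with Cdh2 (-0.43), Vim (-0.48), Zeb1 (-0.52), Zeb2 (-0.54), Snai1 (-0.46), Snai2 (-0.31), Twist1 (-0.39) and Fn1 (-0.14). Of these 13, Mki67 with Zeb1 and Cdh1 with Vim and Zeb1 were called higher as deposited and lower under that scaling. Mki67 with Vim and Cdh1 with Fn1 lost the call. The others of the 13 were not called as deposited and were called lower under that scaling. With TPM rescaled without the 20 largest genes, Mki67 with Zeb1 (-0.05) and Cdh1 with Vim (-0.10) changed sign and lost the call in the 79. With the 3 references in 1 model, Mki67 with Fn1 changed sign to 0.09 and lost the call in the 36. Size factors of the median-of-ratios scaling ran from 0.407 to 1.65, and the 20 largest genes took 48.9% to 81.8% of TPM. The cause of these changes was not tested.

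Of the 9 genes, 5 were called with Chga in the 79 libraries. The count was 3 under median-of-ratios scaling (Cdh2 and Zeb2 of the 5, and Cdh1 lower), 3 without the 20 largest genes, 2 on ranks, 3 with the 3 references in 1 model and 0 within the 72 libraries low in Chga. In the 36 it went from 6 to 0 on ranks and to 1 without the 4 libraries low in Chga. Without those 4, r with Chga changed sign for Cdh1 (0.12), Vim (0.12), Zeb2 (-0.59), Snai1 (0.07) and Fn1 (0.24). Here the r of Cdh1 spans its own low and high clusters. Of these only Zeb2 was then called (limma adjusted p = 0.0161), and it was not called over the 36. Cdh1, Vim, Snai1 and Fn1 lost the call. The count with Mki67 in the 79 went from 4 to 2 without the 20 largest genes. With Col1a1 in the 36 it went from 9 to 5 with the 3 references in 1 model and to 5 without the 4 libraries. Pairs called in the 36 went from 25 to 7 without the 4, and in the 79 to 18 of 21 at a minimum mean of 1 TPM, which removes Snai1 and Snai2. Without the 20 largest genes the rescaled medians were 126.1 TPM for Cdh1, 126.8 for Vim, 18.9 for Zeb1 and 1.3 for Snai2. Leaving out W4548 changed the call of 1 of 63 relations in the 79, Chga with Snai2 (0.29, limma adjusted p = 0.0506). The fits without the 4, without W4548 and within the 72 were chosen after the data were seen. No paired analysis was possible because all libraries share 1 label and no number links them.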
